A study of Sus scrofa with 92 samples.

Results

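The genes described here are those that carry a cell through DNA replication and mitosis, followed in pig liver through hemorrhagic shock and resuscitation. A list of 35 gene symbols was looked up in the count table, and a symbol was kept where its pig Ensembl identifier had a sum of at least 10 CPM (counts scaled to a common library total) over the libraries used. Of the 35 symbols, 26 had an identifier in the table. For 3 of these (MCM5, RRM2 and PLK1) every count was 0. The other 23 passed and were tested, out of 13667 genes that passed among 25322 identifiers. The remaining 9 symbols (CCND1, MCM6, MCM7, PCNA, TYMS, CCNA2, AURKA, MKI67 and NUSAP1) were not analysed here.

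Most hepatocytes of a resting liver sit outside the cell cycle and can re-enter it after injury or loss of tissue. On entry, E2F transcription factors and E-type cyclins switch on the genes that load and fire replication origins in late G1 and S phase. The cyclin B kinase, the spindle proteins and the checkpoint genes are made later, in G2 and mitosis, so that a cell passes through the gene groups in that order. The 23 tested genes were therefore read by role, with 11 placed in G1 and S phase and 12 in G2 and mitosis.

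The samples were liver biopsies of 23 juvenile male Yorkshire-Landrace pigs. All animals were splenectomized, fasted overnight, and given a chest injury with a captive bolt, a crush injury of the liver and a controlled hemorrhage, then limited and full resuscitation. In the fasted group (FS, 18 animals) nothing was fed, and in the carbohydrate prefed group (CPF, 5 animals) a bolus of Karo syrup was given before the shock. Biopsies from the liver's periphery were taken at Baseline after instrumentation (B) and after 2, 8 and 20 h of full resuscitation (FR2, FR8 and FR20), and 3 FS animals (2, 16 and 20) and 2 CPF animals (7 and 8) were labelled as having died. There was no group with instrumentation alone, so time after surgery and time after shock cannot be told apart.

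Of 92 libraries, 88 were used, with total counts between 6877117 and 16613261 (median 12071957.5). The Baseline libraries of FS animals 17, 19 and 21, which held 4, 899 and 5 counts of albumin against at least 170443 in any library used, and the FR8 library of CPF animal 3, with 4388 counts in all, were left out, so that FS changes from Baseline rested on 15 animals and CPF changes at FR8 on 4. FS medians and ranges are thus of 15 animals at B and of 18 at each later time point. Since albumin chose the libraries, it is no check of the label in those kept. In these the hepatocyte genes TF (transferrin) and TTR (transthyretin) were at 2837 and 331 CPM or more in every library. Both libraries of FS animal 11 at FR2 and FR8 also stood apart, with 1026 of 9931 genes of a median of at least 20 counts listed at 0, against at most 45 in any of the 86 other libraries. Of the tested cell cycle genes with a median of at least 20 counts, this touched RRM1 alone. Among those with fewer counts, E2F1, CDT1, AURKB, CDC20 and GTSE1 had 0 FS libraries listed at 0 at FR2 or FR8. BUB1, BUB1B, CCNB2, CCNE2 and CDC6 were not checked for it. Depth was thin for several genes, with median counts of 3 for BUB1, 2 for BUB1B, 7.5 for CDC6 and 11 for CCNE2. BUB1 was at 0 in 12 libraries and BUB1B in 15, and their highest count was 21.

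Between 8 and 20 h of full resuscitation, 5 genes of origin licensing and the regulators E2F1 and UHRF1 rose in FS animals, and none of the mitotic genes passed the test. A gene was called where edgeR's quasi-likelihood test gave an adjusted p (Benjamini-Hochberg, over all genes tested) under 0.05 together with a log2 fold change of at least 1 in size. By this rule 7 of the 23 genes rose in FS FR20vFR8 and 0 fell, where 1.46% of all tested genes were called in either direction. That share over all genes moved with single FS animals, to 0.955% without animal 14, 2.18% without 9, 2.34% without 17, 2.19% without 19 and 2.21% without 21. Without animals 17, 19 and 21 together it was 5%, and 8 of the 23 genes were called. All 7 were among the 11 genes of G1 and S phase, whose median log2 fold change was 1.07 (range 0.27 to 1.68) with all 11 above 0. Among the 12 genes of G2 and mitosis 0 were called, 5 lay above 0 and the median was -0.04 (range -0.40 to 0.46). The median of all tested genes was 0.02. The difference between the phase groups was not tested. In bulk tissue, fewer cells of a type and less RNA per cell cannot be told apart, and the same holds for more of either.

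**Figure D1:**
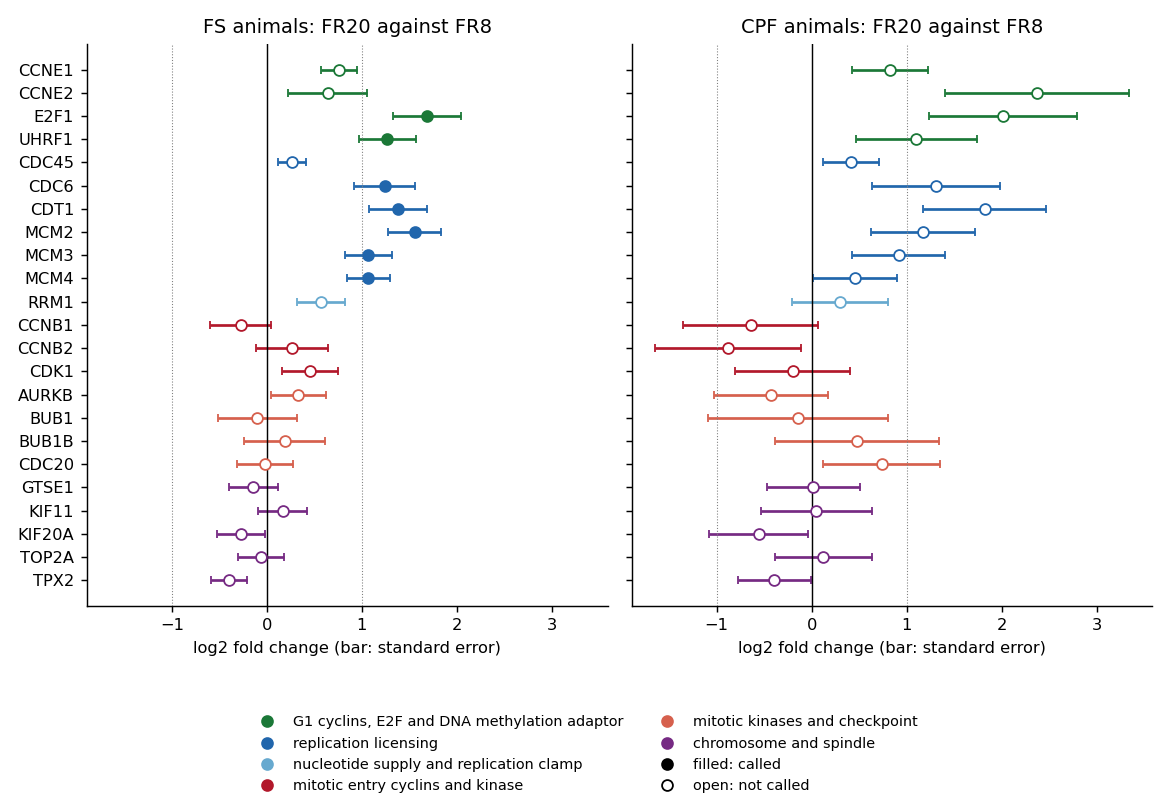
Log2 fold change from FR8 to FR20 (x axis, bars are ± 1 SE) for the 23 tested genes ordered by role, in FS and CPF animals, with filled points for called genes. In FS animals the 7 filled points, from MCM3 and MCM4 at 1.07 to E2F1 at 1.68, all lie in the G1 and S phase block.

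E2F1 (ENSSSCG00000007268), the transcription factor that drives S phase genes, had 0.187 to 5.57 CPM at FR8 in FS animals (median 0.931) and 0.712 to 11.6 at FR20 (median 2.80). The groups overlapped, and 15 of 18 animals were higher at FR20 than at FR8. Its log2 fold change was 1.68 ± 0.36 (SE; adjusted p = 0.00210). UHRF1 (ENSSSCG00000013517), which brings the maintenance DNA methyltransferase to newly made DNA, lay between 0.374 and 3.17 CPM at FR8 (median 1.71) and between 0 and 12.4 at FR20 (median 4.30). Its change was 1.27 ± 0.30 (adjusted p = 0.00600), with 14 of 18 animals higher.

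CDC6 and CDT1 load the MCM helicase onto origins, and both rose. CDC6 (ENSSSCG00000017471) ranged from 0 to 2.27 CPM at FR8 (median 0.427) and from 0.211 to 3.70 at FR20 (median 1.12), a log2 fold change of 1.24 ± 0.32 (adjusted p = 0.0102). CDT1 (ENSSSCG00000002651) ranged from 0.193 to 5.29 CPM at FR8 (median 1.03) and from 0.288 to 10.8 at FR20 (median 3.06), a change of 1.38 ± 0.30 (adjusted p = 0.00302). CDC6 was higher at FR20 in 14 of 18 FS animals and CDT1 in 13, and the lowest FR20 animals lay within the FR8 range for both.

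The MCM proteins form the ring that unwinds DNA at the fork, and the 3 members with counts rose together. MCM2 (ENSSSCG00000011624) had 1.94 to 12.98 CPM at FR8 (median 2.90) and 0.769 to 27.8 at FR20 (median 9.72). Its change was 1.55 ± 0.28, with the smallest adjusted p of the 23 genes (0.000442). MCM3 (ENSSSCG00000025488) had 1.82 to 8.42 CPM at FR8 (median 4.00) and 1.98 to 20.8 at FR20 (median 8.70). MCM4 (ENSSSCG00000006273) had 3.98 to 16.8 CPM at FR8 (median 6.80) and 3.65 to 41.5 at FR20 (median 11.9). The groups overlapped for each, since 1 or more animals stayed low at FR20. The changes were 1.07 ± 0.24 for MCM3 (adjusted p = 0.00418) and 1.07 ± 0.22 for MCM4 (adjusted p = 0.00162), with 13 and 14 of 18 animals higher. MCM3 and MCM4 stood close to the fold threshold. Without FS animal 2 both fell under it, at 0.90 and 0.92, and 5 genes were called. MCM3 was at 0.98 without FS animal 1 or FS animal 5, and MCM4 at 0.99 without FS animal 14, and 6 genes were then called.

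**Figure D2:**
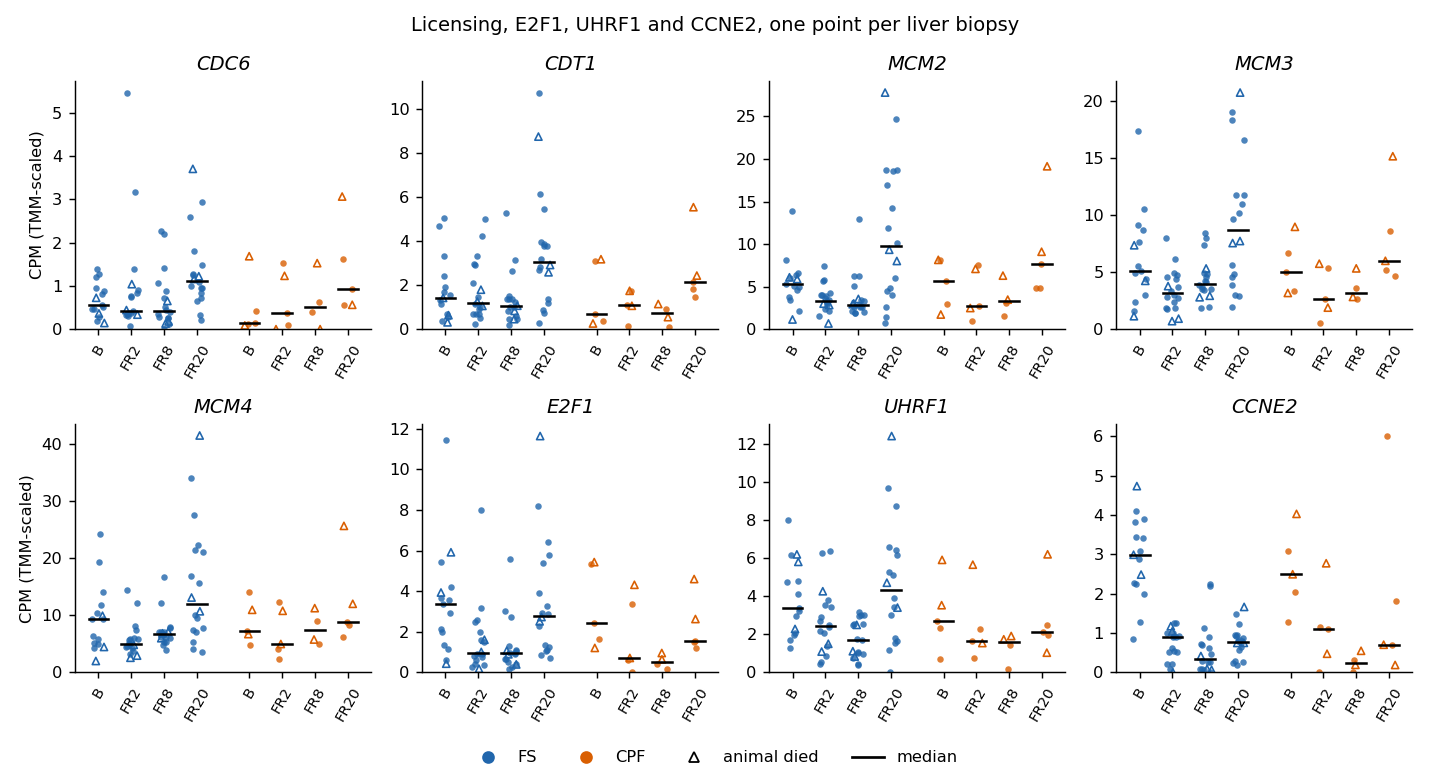
CPM in each biopsy (y axis) at B, FR2, FR8 and FR20 for 8 genes of G1 and S phase, with FS and CPF animals shown apart. From FR8 to FR20 the FS values fan out, except for CCNE2 (0 to 2.25 CPM at FR8 and 0.199 to 1.66 at FR20). They reach 41.5 CPM for MCM4 and 27.8 for MCM2 at FR20. The lowest animals stay within or below the FR8 range, as for MCM2 at 0.769 CPM against an FR8 low of 1.94.

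The other genes of G1 and S phase were above 0 in FS FR20vFR8 without being called. CCNE1 (ENSSSCG00000002855), the cyclin E that pairs with CDK2 at S phase entry, changed by 0.76 ± 0.19 (adjusted p = 0.00995) and so passed the adjusted p but not the fold. Its median was 1.70 CPM at FR8 and 2.91 at FR20, and 14 of 18 animals were higher. CCNE2 had 0.64 ± 0.41 (adjusted p = 0.388) and CDC45, a part of the active helicase, had 0.27 ± 0.14 (adjusted p = 0.285). RRM1 (ENSSSCG00000014791), the large subunit of ribonucleotide reductase, had 0.57 ± 0.25 (adjusted p = 0.166). Without the FR2 and FR8 libraries of FS animal 11, where it was listed at 0, RRM1 had 0.40 ± 0.14 (adjusted p = 0.0693).

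The mitotic genes gave no call over the same interval. CDK1 (ENSSSCG00000010214), the kinase of mitotic entry, had 0 to 6.88 CPM at FR8 (median 2.65) and 1.05 to 9.64 at FR20 (median 2.96), a log2 fold change of 0.46 ± 0.29 (adjusted p = 0.383). Its FR8 and FR20 values covered much the same range, with 9 of 18 animals higher at FR20. Its partner CCNB1 had medians of 2.39 CPM at FR8 and 1.75 at FR20, a difference of -0.27 ± 0.32 (adjusted p = 0.689), and 5 of 18 animals were higher. TOP2A (ENSSSCG00000017473), the topoisomerase that untangles chromosomes, had medians of 5.89 and 6.06 CPM, a difference of -0.06 ± 0.24 (adjusted p = 0.921). TPX2, a spindle assembly factor, had the lowest value of the 23 genes, at -0.40 ± 0.19 (adjusted p = 0.191), and was higher at FR20 in 4 of 18 animals. CDC20, an activator of the anaphase promoting complex, was at -0.02.

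**Figure D3:**
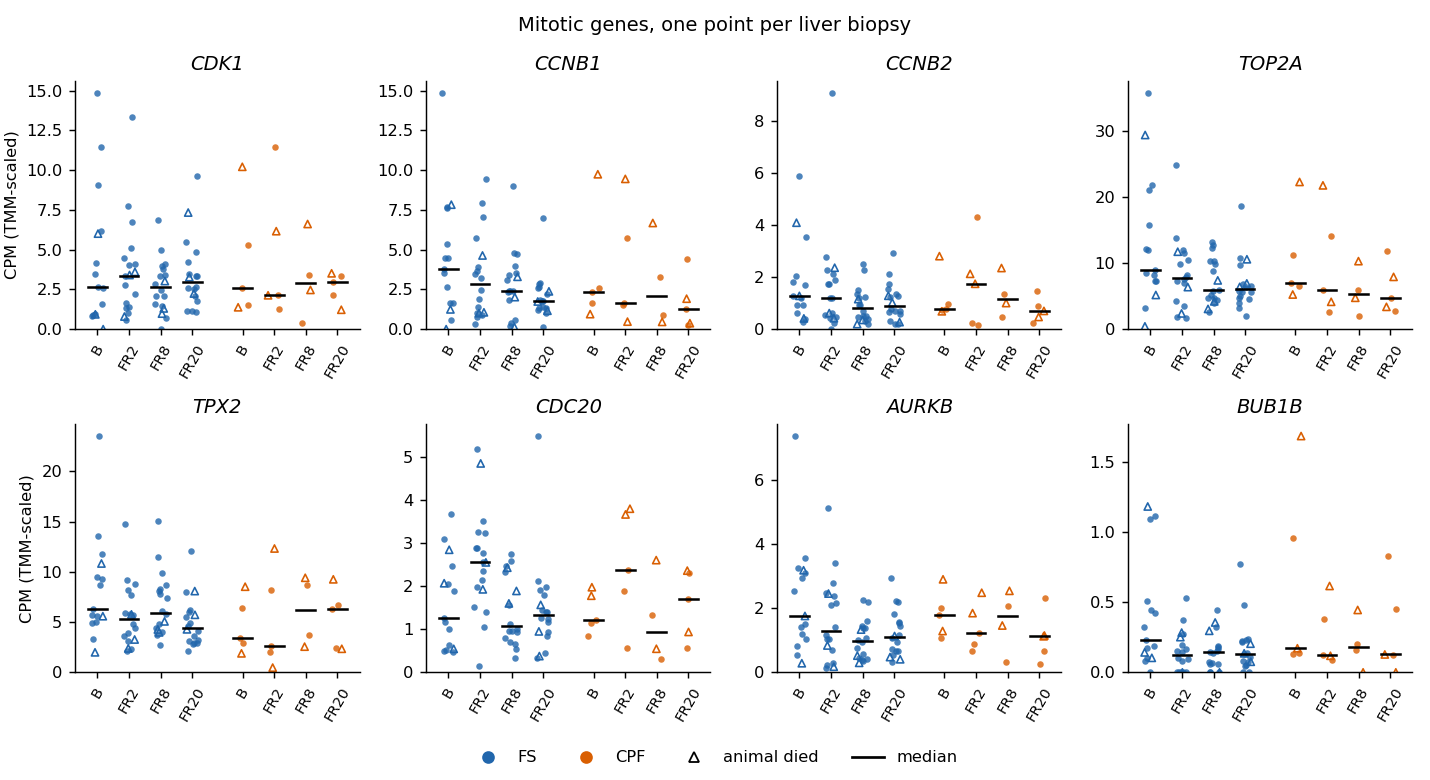
CPM in each biopsy (y axis) at B, FR2, FR8 and FR20 for 8 genes of G2 and mitosis, with FS and CPF animals shown apart. The highest values lie in a few animals at each time point, as for TOP2A with 35.8 CPM at Baseline and 18.7 at FR20, and the FR8 and FR20 ranges overlap throughout.

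Summed over genes, each animal could be followed as a unit. The sum over 10 genes of G1 and S phase (RRM1 left out for its zeros) had a median of 24.8 CPM at FR8 in FS animals (range 16.1 to 62.1) and 49.6 at FR20 (range 15.5 to 141). It was higher at FR20 in 13 of 18 animals, with a median ratio of 1.97 (range 0.535 to 6.77). For the 12 genes of G2 and mitosis the median was 29.2 CPM at FR8 (range 12.4 to 60.04) and 24.3 at FR20 (range 11.2 to 70.6). That sum was higher in 7 of 18 animals, with a median ratio of 0.789 (range 0.436 to 2.91).

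The spread between FS animals at FR20 was wide and not the same in both sums. FS animal 2, which died, had the highest G1 and S phase sum at 141 CPM and the highest value of 7 of the 10 genes. FS animals 15 and 5 followed at 122 and 92.3 CPM. FS animal 9 had only 37.2 CPM in that sum but the highest G2 and mitosis sum, 70.6 CPM, with the highest value of 8 of the 12 genes. Animal 9 had also been highest at Baseline, in 7 of 10 and 8 of 12 genes. The lowest G1 and S phase sums were 15.5, 20.3 and 28.5 CPM in FS animals 17, 21 and 4.

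**Figure D4:**
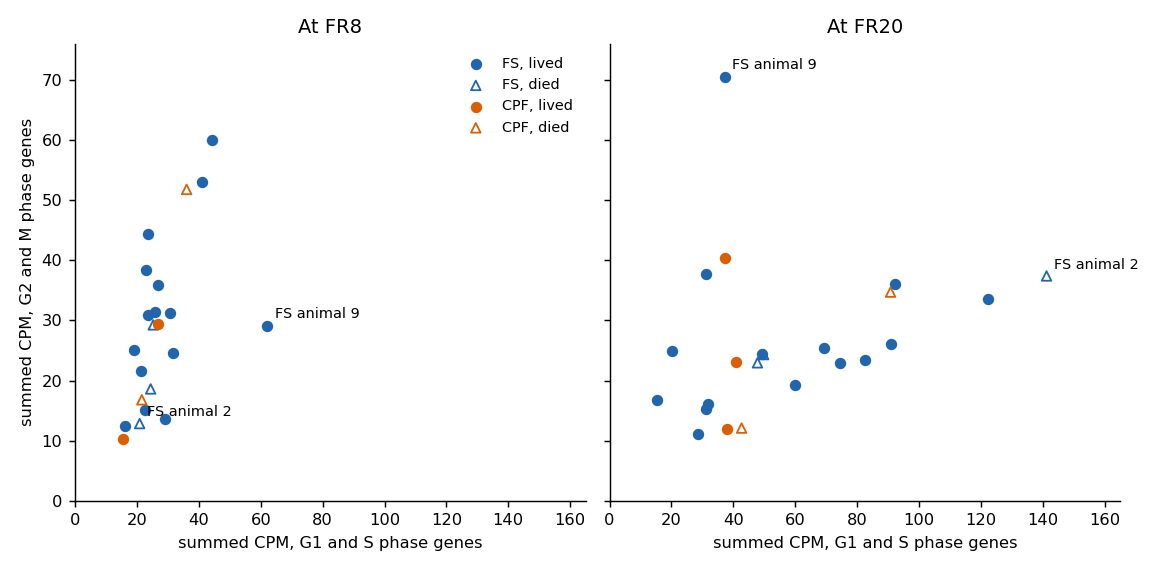
Summed CPM of 12 G2 and mitosis genes (y axis) against that of 10 G1 and S phase genes (x axis), 1 point per animal, at FR8 and FR20, with open triangles for animals that died. From FR8 to FR20 the cloud spreads along the x axis, out to 141 CPM in FS animal 2, and not along the y axis apart from FS animal 9 at 70.6 CPM.

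Some cell type markers also changed. The sum of the 9 measured hepatocyte markers (of 10 listed) had medians of 186900, 134800, 80577 and 48738 CPM at B, FR2, FR8 and FR20 in FS animals. Albumin made up most of this sum, with medians of 141496 CPM at B and 27892 at FR20. In FS FR20vB 4 of the 9 markers fell (ALB, TF, TTR and CYP2E1), where 9.94% of all genes were called. APOA1, APOB, FGB, CPS1 and HNF4A were not called, with FGB at 0.48 and APOB at 0.01. In FS FR20vFR8, where 1.46% of all genes were called, 0 of the 9 were called, with a median of -0.24. ALB (-0.79) and TF (-0.72) passed the adjusted p alone there. FS animals 17, 21 and 19, with low G1 and S phase sums of 15.5, 20.3 and 31.1 CPM, had the highest hepatocyte sums at FR20, namely 147655, 146175 and 120074 CPM. Animals 4, 12 and 6 were also low, at 28.5, 31.3 and 31.9 CPM, but had hepatocyte sums of 69539, 21517 and 35389 CPM. Animal 2, with the highest G1 and S phase sum at 141 CPM, had a hepatocyte sum of 67835 CPM. Of the 55 markers tested 2 were called in FS FR20vFR8, both higher, beside the 1.46% of all genes. Whether 2 of 55 exceeds that share was not tested. COL1A2, a fibrillar collagen of stellate cells and fibroblasts, rose by 1.28 ± 0.35 (adjusted p = 0.0160), and by 1.09 ± 0.21 (adjusted p = 0.00134) without the FR2 and FR8 libraries of FS animal 11. MPO, the peroxidase of granulocyte precursors, rose by 1.60 ± 0.49 (adjusted p = 0.0368) at a median of 0.582 CPM. It was the only 1 of 8 listed granulocyte precursor markers that passed the filter. Leaving out FS animal 1, 2, 4, 5, 6, 11, 14, 15, 16 or 22 took the adjusted p of MPO above 0.05, up to 0.0887, and leaving out animal 14 took that of COL1A2 to 0.0549. The stellate cell and fibroblast sum over 6 of 8 markers had medians of 485 and 930 CPM at FR8 and FR20. The T and NK cell sum over 10 of 15 markers had 52.3 and 48.3 CPM, and the erythroid sum over 5 of 10 had 197 and 374 CPM. Within the erythroid list the transferrin receptor TFRC, which many dividing cells also carry, had medians of 84.3 and 207 CPM (0.93 ± 0.29, adjusted p = 0.0420), and HBB, a globin of red cells, had 116 and 106 CPM. The part of these changes in the rise of the replication genes was not tested.

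In CPF animals the same interval gave 0 calls among the 23 genes by edgeR's quasi-likelihood test, DESeq2 and edgeR's likelihood ratio test, with 5 genes at an unadjusted p under 0.05, and 0.022% of all genes were called. All 11 genes of G1 and S phase were above 0, with a median log2 fold change of 1.10 (range 0.30 to 2.37), and 5 of 12 of G2 and mitosis, with a median of -0.17. MCM2 had 3.47, 6.29, 1.60 and 3.08 CPM at FR8 in animals 7, 8, 13 and 18. At FR20 it had 7.72, 9.10, 19.1, 4.80 and 4.89 in animals 3, 7, 8, 13 and 18. Each of the 4 animals with both biopsies was higher at FR20, although the groups overlapped, and the change was 1.18 ± 0.55 (adjusted p = 0.427).

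E2F1 in CPF animals had 0.639, 0.953, 0.160 and 0.411 CPM at FR8 and 1.47, 2.63, 4.60, 1.20 and 1.57 at FR20. These values did not overlap, and the change was 2.02 ± 0.78 (adjusted p = 0.311). CDT1 had 0.548, 1.14, 0.0799 and 0.925 CPM at FR8 and 2.16, 2.44, 5.55, 1.85 and 1.44 at FR20, again without overlap, a change of 1.82 ± 0.65 (adjusted p = 0.270). The highest CPF value was that of CCNE2, 2.37 ± 0.97 (adjusted p = 0.344), and the lowest that of CCNB2, -0.88 ± 0.77 (adjusted p = 0.748). The sum over the 10 genes of G1 and S phase was higher at FR20 in 4 of 4 animals, with a median ratio of 2.19. That over the 12 genes of G2 and mitosis was higher in 1 of 4, with a median ratio of 0.695 (range 0.405 to 3.91). The animal with the rise was 13, from 10.3 CPM at FR8 to 40.4 at FR20.

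The FR20vFR8 change did not differ detectably between the feeding groups. The CPF group was small, so no likeness of the groups is shown. In the test of CPF minus FS, 0 of 23 genes were called by edgeR's quasi-likelihood test, by DESeq2 or by the likelihood ratio test, and 0 had an unadjusted p under 0.05, with 0% of all genes called. For the 7 genes that rose in FS animals the difference ran from -0.61 ± 0.49 for MCM4 to 0.44 ± 0.70 for CDT1 (adjusted p = 1.00 for each).

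Against Baseline, the counts of called genes in the first hours were near the share over all genes in FS animals. At FR2, 3 of the 23 genes fell and 0 rose, where 11% of all genes were called, and the members' median log2 fold change was -0.50 against -0.04 over all genes, with 5 of the 23 above 0. At FR8, 4 fell and 0 rose, where 11.8% were called, with a median of -0.49 against -0.00. At FR8 0 of the 23 lay above 0. In FR8vFR2 0 genes were called by the quasi-likelihood test, DESeq2 or the likelihood ratio test, 4 had an unadjusted p under 0.05, and 5.96% of all genes were called. CCNE1 (-0.93 ± 0.19, adjusted p = 0.000260) and CDC20 (-0.91 ± 0.30, adjusted p = 0.0157) passed the adjusted p there but not the fold.

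CCNE2 (ENSSSCG00000006095), the second E-type cyclin, stood lowest in every FS comparison with Baseline. It had 0.838 to 4.73 CPM at B (median 2.99), 0 to 1.25 at FR2 (median 0.907), 0 to 2.25 at FR8 (median 0.350) and 0.199 to 1.66 at FR20 (median 0.780). All 15 animals with a Baseline were lower at each later time point, although the ranges overlapped. The changes from Baseline were -2.01 ± 0.41 at FR2 (adjusted p = 7.56e-05), -2.56 ± 0.43 at FR8 (adjusted p = 4.91e-06) and -1.92 ± 0.40 at FR20 (adjusted p = 0.000133). CCNE2 thus remained below Baseline at FR20, when CDT1 and MCM2 were above theirs.

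E2F1 fell early, and its FR20 level could not be told from Baseline. From 0.427 to 11.5 CPM at B (median 3.36) it went to medians of 0.950 at FR2 and 0.931 at FR8. The changes were -1.14 ± 0.36 at FR2 (adjusted p = 0.00883) and -1.43 ± 0.37 at FR8 (adjusted p = 0.00173). At FR20 the median was 2.80 and the change from Baseline 0.26 ± 0.36 (adjusted p = 0.608), with 7 of 15 animals higher. The FS ranges overlapped at every time point.

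Among the mitotic genes, the checkpoint kinase BUB1B (ENSSSCG00000004782) and the chromosomal passenger kinase AURKB (ENSSSCG00000028924) fell. BUB1B had a median of 0.232 CPM at B (range 0 to 1.18) and 0.125, 0.144 and 0.134 at FR2, FR8 and FR20. It changed by -1.29 ± 0.45 at FR2 (adjusted p = 0.0175), -1.35 ± 0.44 at FR8 (adjusted p = 0.0107) and -1.16 ± 0.43 at FR20 (adjusted p = 0.0303). These values rest on few counts. With the 3 Baseline libraries almost without albumin kept in (91 libraries), BUB1B was not called at any of the 3 time points, at -0.99, -1.08 (adjusted p = 0.0516) and -0.87. At FR20 its call was also lost with no filter on low counts, without animal terms, and without FS animal 15, 16 or 22, with values from -1.01 to -1.19. AURKB had 0.285 to 7.38 CPM at B (median 1.76) and 0.296 to 2.26 at FR8 (median 0.987), a change of -1.06 ± 0.31 (adjusted p = 0.00404). It was at -0.99 without FS animal 1 and -0.98 without FS animal 20. With the 3 Baseline libraries almost without albumin kept in, it was at -0.72 (adjusted p = 0.0965) and not called.

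Several genes passed the adjusted p against Baseline but not the fold. At FR2 these were CDC45 (-0.69), MCM3 (-0.71) and TPX2 (-0.50) on the low side and CDC20 (0.75 ± 0.31, adjusted p = 0.0496) on the high side. At FR8 they were UHRF1 (-0.94), RRM1 (-0.93), KIF11 (-0.87), CCNE1 (-0.68), TOP2A (-0.65) and CDC45 (-0.38). RRM1 was at -0.74 without the FR2 and FR8 libraries of FS animal 11.

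At FR20 members lay on both sides of Baseline. In FS FR20vB 2 genes rose and 2 fell, where 9.94% of all genes were called. CDT1 rose from a median of 1.42 CPM (range 0.310 to 5.08 at B) to 3.06, a change of 1.17 ± 0.31 (adjusted p = 0.00257). MCM2 rose from a median of 5.31 CPM (range 1.14 to 13.9 at B) to 9.72, a change of 1.07 ± 0.28 (adjusted p = 0.00241). The medians at B are of 15 animals and those at FR20 of 18, and the B and FR20 ranges overlapped for both. MCM2 was under the fold threshold without FS animal 2 (0.87), 5 (0.97) or 15 (0.99), and with the 3 Baseline libraries almost without albumin kept in (0.80). MCM3 (0.80), MCM4 (0.83) and CDC6 (0.95) passed the adjusted p on the high side. TOP2A (-0.72), TPX2 (-0.61) and the mitotic motors KIF11 (-0.71) and KIF20A (-0.70) passed it on the low side. The median over the 11 genes of G1 and S phase was 0.33, with 8 above 0, and that over the 12 of G2 and mitosis was -0.66, with 1 above 0.

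**Figure D5:**
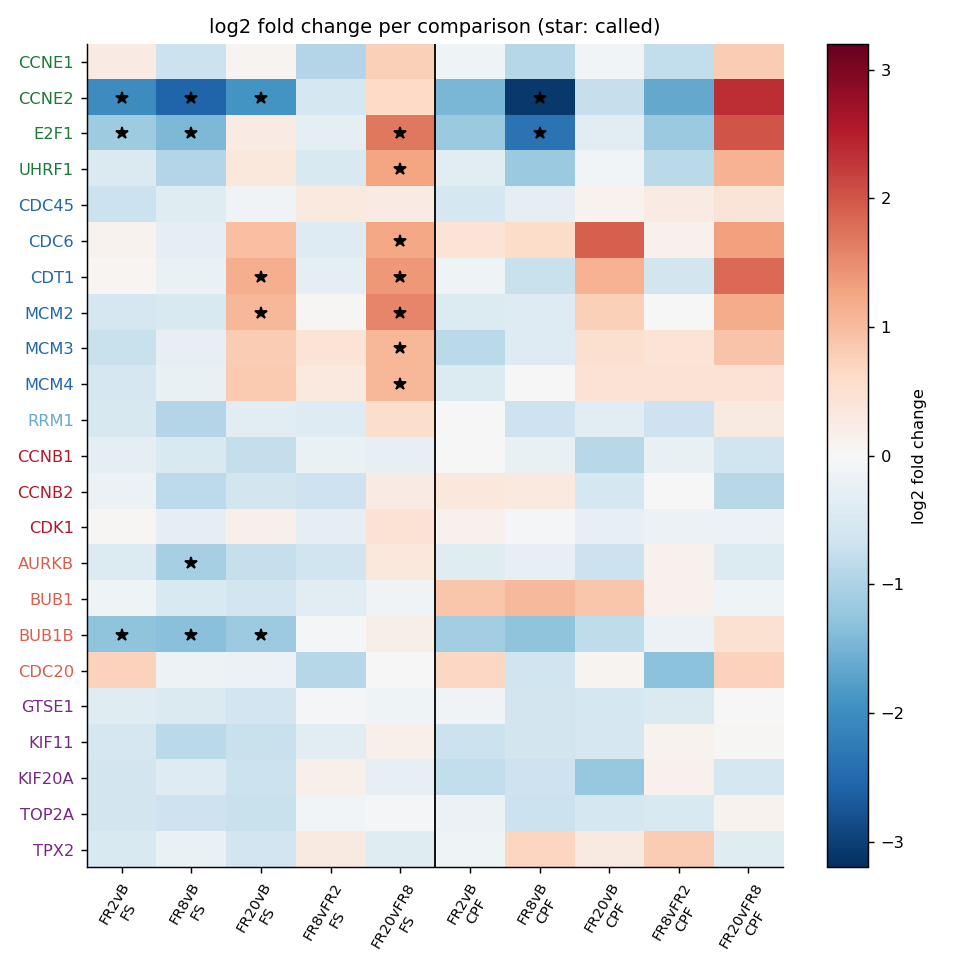
Log2 fold change (colour) of the 23 genes, ordered by role, in 5 comparisons of time points within FS and the same 5 within CPF animals, with a star for called genes. CCNE2 is lowest in the FS comparisons with Baseline (-2.01, -2.56 and -1.92), and the FR20vFR8 column of FS holds 7 stars.

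In CPF animals 2 genes fell in FR8vB, where 8.83% of all genes were called. CCNE2 had 3.09, 2.49, 4.03, 2.04 and 1.28 CPM at B in animals 3, 7, 8, 13 and 18. At FR8 it had 0.548, 0.191, 0 and 0.308 in animals 7, 8, 13 and 18, all below every Baseline value. Its change was -3.10 ± 0.93 (adjusted p = 0.0203). E2F1 had 5.32, 1.20, 5.43, 1.63 and 2.44 CPM at B, also all above the FR8 values given above, and changed by -2.37 ± 0.80 (adjusted p = 0.0393). Neither call was stable to single animals, with 0 genes called without animal 8, 13 or 18 and 1 without animal 3 or 7.

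The remaining CPF comparisons gave 0 calls by edgeR's quasi-likelihood test, DESeq2 and the likelihood ratio test. FR2vB had 0 genes at an unadjusted p under 0.05 (2.41% of all genes called), FR20vB had 2 (0.702%) and FR8vFR2 had 2 (4.92%). In FR20vB the highest value was that of CDC6, 1.90 ± 0.67 (adjusted p = 0.133), and the lowest that of KIF20A, -1.22 ± 0.49 (adjusted p = 0.192). In FR2vB and FR8vFR2 the lowest was CCNE2, at -1.45 ± 0.73 and -1.65 ± 0.96.

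Feeding before the shock gave no called difference in these genes. With 5 CPF animals, and 4 at FR8, this shows no likeness of the feeding groups. For the changes from Baseline, CPF minus FS, 0 of 23 genes were called at FR2, FR8 and FR20 by the quasi-likelihood test, DESeq2 or the likelihood ratio test, with 0% of all genes called. TPX2, at 0.89 in both FR8vB and FR20vB, was the 1 gene at an unadjusted p under 0.05 in each, and there were 0 at FR2. Between CPF and FS at the time points themselves, 21 of the 23 genes could be tested (not BUB1 and BUB1B), and 0 were called at any by the same tools. Of all genes, 0.0257% were called at B and 0% at each later time point. At an unadjusted p under 0.05 there was 1 gene at B, the mitotic regulator GTSE1 (-1.04 ± 0.46), 0 at FR2 and FR8, and 1 at FR20, CCNE2 (1.24 ± 0.48). Both had adjusted p values of 0.60 or more. For CCNE2 at FR20, CPF animal 13 had 6.003 CPM against 0.188 to 1.82 in the other 4. That library also stood apart in its hepatocyte marker sum, at 239552 CPM against 25199 to 46031.

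Animals that died did not differ detectably from those that lived. With the feeding group as a term, 0 of 21 genes were called at B, FR2, FR8 or FR20 by the quasi-likelihood test, DESeq2 or the likelihood ratio test, 0 had an unadjusted p under 0.05 at any of them, and 0% of all genes were called. At FR20, E2F1 had the highest value, 0.98 ± 0.48 (p = 0.0511, adjusted p = 0.904), and AURKB the lowest, -0.61 ± 0.50 (adjusted p = 0.953). Of the 11 genes of G1 and S phase 10 lay above 0 at FR20, with a median of 0.68. Of the 10 tested of G2 and mitosis 4 did, with a median of -0.29. The 3 FS animals that died had G1 and S phase sums of 141, 49.8 and 47.8 CPM at FR20 among FS values of 15.5 to 141. The 2 CPF animals that died had 90.8 and 42.7 CPM among CPF values of 37.4 to 90.8. The intervals around the differences are wide beside the changes seen between time points, so no likeness of the groups is shown.

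The wider cell cycle list, of genes that act beside the members, held 78 tested genes. In FS FR20vFR8 3 of 78 rose and 0 fell, with a median log2 fold change of 0.13. That is 3.85% of the list against 1.46% of all genes. Among them BRCA1, which acts in the repair of broken forks, rose by 1.29 (adjusted p = 0.00386), from a median of 0.869 CPM at FR8 to 2.26 at FR20. CHAF1B, a subunit of the chromatin assembly factor that follows the fork, rose by 1.29 (adjusted p = 0.00600), from a median of 0.725 CPM to 2.09. Of the list's mitosis and cytokinesis genes, 0 of 32 were called, and 22 lay above 0. In CPF FR20vFR8 0 of 78 were called, against 0.022% of all genes.

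Against Baseline and in FR8vFR2, the share of the wider list called was below or near that of all genes in FS animals, at 6.41% against 11% in FR2vB, 8.97% against 11.8% in FR8vB, 6.41% against 9.94% in FR20vB and 6.41% against 5.96% in FR8vFR2. In FS FR2vB 2 of 78 rose, the transcription factor MYBL2 (1.07, adjusted p = 0.000241) and the stress kinase PLK3 (1.06, adjusted p = 0.00107). In the same comparison 3 fell, the CDK inhibitor CDKN2C (-1.08), the cyclin CCNG2 (-1.08) and the centromere chaperone HJURP (-1.91). In FS FR8vB 0 rose and 7 fell, among them the growth arrest gene GADD45B (-2.62), HJURP (-1.96) and CCNG2 (-1.01). Without the FR2 and FR8 libraries of FS animal 11, CCNG2 (-0.96) and the kinetochore gene CENPF (-0.94, from -1.07) were under the fold threshold, and 5 fell. In FS FR20vB 1 rose, BRCA1 (1.13), and 4 fell, GADD45B (-3.11) and HJURP (-1.91) again among them, with the spindle pole gene ASPM (-1.37). In FS FR8vFR2 2 rose, the single-strand binding subunit RPA2 (1.03, and 0.99 without the same libraries of FS animal 11) and the helicase BLM (1.34), and 3 fell, GADD45B (-2.53), PLK3 (-1.09) and the CDK1 inhibitor kinase WEE1 (-1.77). In CPF animals 2 of 78 rose and 0 fell in FR2vB, 2 rose and 3 fell in FR8vB, 3 rose and 2 fell in FR8vFR2, and 0 were called in FR20vB. In FR8vFR2 5 rose in the fit without the same libraries of FS animal 11, which shares its estimate of the spread with CPF. The counts first given are 2.56%, 6.41%, 6.41% and 0% of the list, against 2.41%, 8.83%, 4.92% and 0.702% of all genes.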

How the data were processed

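RNA of 92 liver biopsies was sequenced on the Illumina HiSeq platform, and the authors deposited a table of raw HTSeq counts per Ensembl gene, with no normalization. The submitters' processing notes name CASAVA 1.8.2, TopHat 1.5.0, SAMtools, HTSeq, edgeR 3.2.4 and the build Sscrofa10.2; HTSeq's strand mode is not given in the sources used here. The gene table at hand is of Sscrofa11.1, so it was used for names only and no coordinates are given. The members and gene lists were chosen with earlier results of these data known. Groups, animals and survival came from the labels.

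Counts of 88 libraries were scaled by TMM and fitted in edgeR 4.0.16 (R 4.3.3, limma 3.58.1) by the quasi-likelihood test, with animal terms and time terms of its own for each feeding group. Genes whose CPM summed to 10 or more were tested, 2-sided. A call needed an adjusted p (Benjamini-Hochberg) below 0.05 and a log2 fold change of 1 or more in size. SE was the log2 fold change divided by the root of F. Levels between groups at a time point were fitted per time point without animal terms. Within-animal directions used log2(CPM + 0.5). CPM used TMM-scaled library sizes and is scaled within a library and not by gene length, so levels were not compared between genes. The fits were run on simulated counts with a set spread and no differences between animals, so this did not test the animal terms. Alternatives were other scaling and filters, DESeq2 1.42.0, the likelihood ratio test, other library sets, no animal terms and leaving out each animal. Tables and figures were made in Python 3.11.15 with numpy 2.4.6, pandas 2.3.3 and matplotlib 3.10.9.

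Samples of 1 animal were paired by design. Deviations from the group means had a median correlation of 0.205 over 126 pairs from 1 animal. It was -0.0235 over 2391 pairs from different animals of the same feeding group. Full statistics were given for members called in any comparison, for the member with the highest mean CPM of each role, and for the highest and lowest member of a comparison, and of the wider list for at most 3 called genes in each direction. A called gene of the wider list is not reported here.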

Additional observations from a re-analysis of the deposited data

Results flagged for a closer look

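Of 40 CPF groups of member values checked, 4 held an animal far from the others by Dixon's gap, the gap to the nearest value as a share of the range. Chance gives about 1 in 20 for independent groups of normally distributed values. These groups were of called members in the same 5 animals, so the 4 cannot be set against that rate. CCNE2 in CPF animal 13 at FR20 was 6.003 CPM, against 0.188 to 1.82 in the other 4. The same library had a hepatocyte marker sum of 239552 CPM, against 25199 to 46031 in the other 4. Its erythroid marker sum was 1366 CPM, against 178 to 410. The part of this in the CCNE2 value was not tested. CPF animal 8 gave the other 3. CDC6 was 1.69 CPM at Baseline against 0.0859 to 0.426, CDT1 was 5.55 at FR20 against 1.44 to 2.44, and UHRF1 was 6.19 at FR20 against 1.03 to 2.50. This animal also had the highest value of 7 of the 10 G1 and S phase genes and 10 of the 12 G2 and mitosis genes at Baseline in its group.

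In the Baseline libraries almost without albumin that no comparison used, some genes lay above every Baseline library used (CPM without TMM scaling). CCNE1 was 9.37, 7.82 and 9.96 CPM in those of FS animals 17, 19 and 21, against 1.02 to 4.84. GTSE1 was 4.73 in that of animal 17, against 0.530 to 4.36. In that of animal 21, CDC6 was 1.32 against 0.121 to 1.16 and MCM2 was 21.2 against 0.968 to 11.5. Most of the 23 genes lay within the Baseline range in each of these libraries, namely 18, 20 and 18, and 3, 2 and 2 lay below it. RRM1 was below in each, at 23.5, 19.5 and 23.8 CPM against 26.4 to 64.1. CCNB2 was below in those of animals 17 and 19, and AURKB in those of animals 17 and 21.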

How the results depend on the processing

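Over 22 comparisons and all alternatives, 626 of 647 counts of called members stayed within 1.5 times the main count and 0 log2 fold changes of called genes reversed. Most of these comparisons had a main count of 0, and 0 against 0 was taken as unchanged, so the total says little about the calls made. For CPF FR8vB, with 2 genes, 9 of 12 settings stayed within that limit, apart from leaving out each animal. For FS FR20vFR8 (7 genes) every alternative gave 6 to 8, and leaving out each animal gave 5 to 7. By the adjusted p alone FR2vB, FR8vB, FR20vB and FR8vFR2 in FS gave 7, 10, 11 and 2 genes against 3, 4, 4 and 0. With the 3 Baseline libraries almost without albumin (91 libraries) FS FR20vB gave 2 and CPF FR8vB 0, and with all 92 libraries they gave 2 and 0 and FS FR8vFR2 1. Without FS animals 17, 19 and 21 (chosen after seeing the data, as were the fit without 2 libraries of FS animal 11 and the CPF minus FS comparison of FR20vFR8) FS FR8vB gave 7 and FR8vFR2 2. Leaving out 1 animal gave 3 to 6 for FS FR8vB, 2 to 5 for FR20vB (2 without FS animal 15), 0 to 1 for FR8vFR2 (1 without FS animal 10, 12 or 17) and 0 to 1 for CPF FR8vB. The animal terms are the replicate block of this paired design. Without the block CPF FR8vB gave 1 and FS FR20vFR8 gave 6, CDC6 being lost at 1.00 (adjusted p = 0.160), and BUB1B in FS FR20vB lost its call at -1.19. It changed no other count by over 1.5 times. The causes were not tested. Genes of a few counts, BUB1 and BUB1B above all, have too little depth to show changes of under the fold threshold.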
